A study of Mus musculus with 17 samples.

Results

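The genes described here are those for the gonadotropin receptors, Fshr and Lhcgr, and for the proteins that meet them first inside the cell: Gnas, Arrb1 and Arrb2. They were taken by gene symbol from a table of 25198 genes, and all 5 symbols were found once. RNA had been measured by RNA-seq in antral follicles of CD1 mice aged 16 days, after 8 days of growth in eIVFG, a culture system in which each follicle grows encapsulated in a gel. Control libraries numbered 11 (6 in batch 1, 5 in batch 2) and Tyrphostin libraries 6 (3 in each batch), and every sample pooled 3 follicles. The names of the Control libraries place them in 5 numbered sets, while those of the Tyrphostin libraries carry no set number. What libraries of a set share is not stated, and each library counts separately below unless sets are said to be summed. Tyrphostin follicles were exposed for 4 h to hCG together with 10 µM Tyrphostin-AG1478, an inhibitor of the EGF receptor kinase, dissolved in DMSO. One treatment text covers all samples in the labels, so whether Control follicles received hCG or DMSO is not stated. No label says whether libraries of 1 group came from separate animals or cultures, so the p-values below measure only the spread between these libraries, which may be technical.

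Gonadotropins act on the follicle through a pair of receptors that cross the membrane 7 times. Fshr, the receptor for follicle-stimulating hormone, is found in granulosa cells, and Lhcgr, the receptor for luteinizing hormone and for hCG, is found in theca cells and in the granulosa cells of large follicles. Both couple to the stimulatory G protein, whose alpha subunit is encoded by Gnas and switches on adenylyl cyclase, so that cyclic AMP rises in the cell. Receptor kinases then phosphorylate the occupied receptor, and the beta-arrestins, encoded by Arrb1 and Arrb2, bind it, uncouple it from the G protein and lead it into clathrin-coated pits. In the preovulatory granulosa cell this chain starts the release of EGF-like ligands, which act on the EGF receptor.

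In GENCODE M21 (build GRCm38) both receptor genes lie on the minus strand of chromosome 17. Fshr spans chr17:88984952-89200675 and Lhcgr spans chr17:88716481-88791990. The stretch of 192961 bases between them holds 1 annotated gene, which is not protein coding. Gnas lies at chr2:174284320-174346744, Arrb1 at chr7:99535466-99606771 and Arrb2 at chr11:70432635-70440828, all on the plus strand. The merged exons came to 2360 bases for Fshr, 7645 for Lhcgr, 11186 for Gnas, 11175 for Arrb1 and 2845 for Arrb2.

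Fshr and Lhcgr were the members called higher in Tyrphostin libraries, and the bases just before their outermost annotated starts are shown so that the genes can be compared. Each run is on the minus strand, 5′ to 3′, from RefSeq (GRCm38.p6), and covers chr17:89200676-89200925 for Fshr (250 bases) and chr17:88792060-88792264 for Lhcgr (205 bases). The Fshr run adjoins the GENCODE gene end given above, while the outermost RefSeq start of Lhcgr lies 69 bases beyond its GENCODE end. Capitals mark matches to CACGTG (an E box, the kind of site that USF factors bind), GGGCGG (a GC box, bound by Sp1 and Sp3) and AGGTCA (a short site that nuclear receptors bind).
Fshr: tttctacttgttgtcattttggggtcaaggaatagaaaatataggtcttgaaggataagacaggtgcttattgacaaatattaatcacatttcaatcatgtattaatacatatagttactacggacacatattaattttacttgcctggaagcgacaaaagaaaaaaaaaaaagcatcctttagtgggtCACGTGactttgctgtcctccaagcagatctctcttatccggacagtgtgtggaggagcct
Lhcgr: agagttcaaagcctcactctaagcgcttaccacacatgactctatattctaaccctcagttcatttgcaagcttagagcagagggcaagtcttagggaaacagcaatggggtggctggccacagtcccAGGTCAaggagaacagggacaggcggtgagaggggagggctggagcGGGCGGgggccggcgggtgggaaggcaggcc
The upstream sequences differed in composition and in the motifs they held. GC content was 36.8% in the Fshr run and 58.5% in the Lhcgr run, beside a median of 52.4% over 32851 RefSeq promoters cut to 250 bases. Both strands were searched, and no match overlapped another. Fshr held 1 CACGTG, from 61 to 56 bases before the first annotated base, and 6.02% of promoters of that length hold it. Lhcgr held 1 GGGCGG, from 31 to 26 bases before its first annotated base, and 1 AGGTCA, from 77 to 72 bases before it. In all, 25.6% and 11.7% of promoters hold these motifs when cut to their first 205 bases, counted from the upstream end. That cut can leave out the bases next to a start. Neither run held TGACGTCA, the full cyclic AMP response element, present in 1.55% of promoters at the length of Fshr and 0.877% at that of Lhcgr. A match is a run of letters only, and a missing match says nothing of the factors named.

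Whole-series facts were few. Total counts ran from 1820545 in Control 6 to 8291024 in Control 8. Their mean was 4224214 ± 1616044 over Control (SD, n = 11) and 5526787 ± 1579796 over Tyrphostin libraries (SD, n = 6). Levels are given as CPM, counts per 1000000 counts of a library after TMM scaling of its size. Granulosa markers (8 genes) summed to between 39036 and 52828 CPM in Control and between 35118 and 51886 CPM in Tyrphostin libraries, nearly all of it Inha, an inhibin subunit. The defining granulosa genes Foxl2, a transcription factor, and Amh, anti-Müllerian hormone, were low, with highest values of 4.66 and 1.08 CPM. Means were 0.592 CPM in Control and 1.42 CPM in Tyrphostin libraries for Foxl2, and 0.0194 and 0.331 CPM for Amh.

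Per kilobase of merged exon, the members spanned a wide range of levels. Lhcgr was highest, at 60.9 ± 38.6 CPM per kilobase in Control (SD, n = 11) and 122 ± 34.3 in Tyrphostin libraries (SD, n = 6). Gnas followed at 17.1 ± 10.7 and 19.7 ± 16.4, and Fshr at 3.52 ± 1.20 and 6.29 ± 2.67. The arrestins were lowest, with Arrb2 at 0.527 ± 0.401 and 0.752 ± 0.238 and Arrb1 at 0.205 ± 0.125 and 0.165 ± 0.228. Within libraries the order was steady: Lhcgr stood above Gnas in 17 of 17, Gnas above Fshr in 16 of 17, and Arrb1 above Arrb2 in 1 of 17. Neighbours in the order nevertheless overlapped over libraries, since the lowest Lhcgr level (24.5 CPM per kilobase) lay under the highest Gnas level (40.9), and the lowest Gnas level (6.51) under the highest Fshr level (9.17). The ranges separated only between Fshr, whose lowest level was 1.60 CPM per kilobase, and the arrestins, whose highest were 1.54 for Arrb2 and 0.627 for Arrb1. This order depends on the merged exon length, which is longest for Gnas and Arrb1 and may exceed that of the transcripts present. Before division by length, summed counts were 122 for Arrb1 and 68 for Arrb2 in Control, and 51 and 76 in Tyrphostin libraries.

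**Figure D1:**
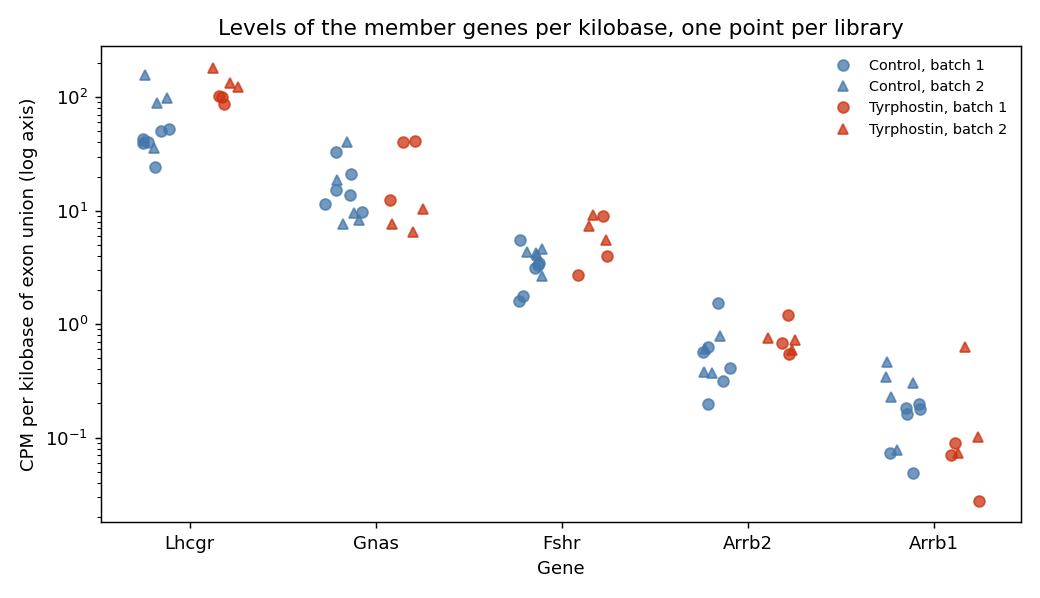
Level of each member gene in CPM per kilobase of merged exon (log axis), 1 point per library, blue for Control and red for Tyrphostin, circles for batch 1 and triangles for batch 2. The Arrb2 value of Control 9 is 0 and cannot be drawn on this axis. Lhcgr is highest and the arrestins are lowest, with group means from 122 down to 0.165.

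The main comparison set Tyrphostin libraries, exposed to hCG and the inhibitor, against Control libraries, with batch as a term in the model. Because the treatment of Control follicles is not stated, effects of the inhibitor, hCG and DMSO cannot be told apart. Both receptors rose: Lhcgr by 2.03-fold and Fshr by 1.78-fold. Gnas, the G protein subunit that both receptors use, gave no call. Arrb1 and Arrb2 fell below the filter on low counts, so 3 of the 5 members were tested. Of those 3, 2 passed an adjusted p of 0.05 and both were higher. Over the 9603 genes tested, 10.6% passed (4.35% higher and 6.25% lower).

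Lhcgr, the receptor that hCG occupies, was the more abundant and the more firmly called of the receptors. Over the 11 Control libraries its level had a lowest value of 187, a median of 328 and a highest value of 1191 CPM, and over the 6 Tyrphostin libraries the values were 670.0, 860 and 1398 CPM. Means were 465 ± 295 CPM in Control (SD, n = 11) and 929.6 ± 262 CPM in Tyrphostin libraries (SD, n = 6). The groups overlapped: 3 Control libraries, all of batch 2, stood above the lowest Tyrphostin library, and 1 of 6 Tyrphostin libraries stood above every Control library. The log2 fold change was 1.02 ± 0.24 (SE), with an adjusted p of 0.00765 by edgeR's quasi-likelihood test and a 95% interval of 1.46 to 2.82 on the fold scale. In bulk samples, more cells of a type and more RNA per cell cannot be told apart. The call held in 17 of 17 fits that each left out 1 library and was lost without the batch term (adjusted p = 0.0596) and when Control libraries were summed by set (adjusted p = 0.0512).

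Lhcgr followed batch as well as treatment. In batch 1 the Control libraries ran from 187 to 399.9 CPM with a median of 317. Tyrphostin 1, 2 and 3 stood at 770.4, 777 and 670.0 CPM, so the groups did not overlap. The share of all genes whose groups separate in this way was not counted, here or for the genes below. In batch 2 the Control libraries stood at 678, 1191, 748, 317 and 271 CPM and Tyrphostin 4, 5 and 6 at 1021, 942 and 1398 CPM; Control 8 lay inside the Tyrphostin range. Batch 2 Control libraries thus split into 3 high ones (Control 7, 8 and 9) and 2 low ones (Control 10 and 11), which also carry different set numbers in their names. Fitted alone, batch 1 gave a log2 fold change of 1.22 ± 0.24 (SE) with an edgeR adjusted p of 0.00377, where 6.73% of 9423 genes were called, and 2.94% were called higher. Batch 2 gave 0.81 ± 0.43 with an adjusted p of 0.556, where 0.621% of 9830 genes were called. The difference between the batches' effects was -0.41 ± 0.50 (SE; edgeR interaction test, unadjusted p = 0.425), so it was within its error, and without Control 8 it was -0.03. These fits use the same libraries as the one over both batches.

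Theca and stroma markers varied alongside Lhcgr in some libraries. Their summed level (10 genes) ran from 265 to 2168 CPM in Control, with a median of 493, and from 274 to 3058 CPM in Tyrphostin libraries, with a median of 603. Control 7 and 8, which were high in Lhcgr, had 2168 and 2018 CPM of these markers, while Control 9, also high in Lhcgr, had 420 CPM. Control 10, low in Lhcgr, had 1198 CPM, and Tyrphostin 5, the lowest of its batch and group in Lhcgr, had 3058 CPM. None of the 9 theca and stroma markers tested was called. In batch 1 every Tyrphostin library exceeded every Control library in Lhcgr. There the theca and stroma sum was 274 to 381 CPM in Tyrphostin and 265 to 741 CPM in Control libraries. That sum mixes markers of opposite sign, and Col3a1 had the highest Control mean among them (475 CPM). In batch 1 the log2 fold change was 1.27 for Cyp17a1, while the other tested markers ran from -1.28 (Col1a2) to -0.53 (Ptch1). In batch 2 the values of all tested markers were positive, from 0.13 (Cyp17a1) to 1.11 (Col1a1). The part of these markers in the Lhcgr difference was not tested in either batch.

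Between the batches' Control libraries, Lhcgr was higher in batch 2. Its mean was 319 ± 76.0 CPM in batch 1 (SD, n = 6) and 641 ± 373 CPM in batch 2 (SD, n = 5). The log2 difference was 1.03 ± 0.33 (SE; edgeR adjusted p = 0.0468), where 14% of 6680 genes were called and 7.26% were higher. Leaving out 1 library ended this call in 9 of 11 fits, and without Control 8 the difference was 0.66 (adjusted p = 0.171). RLE scaling (adjusted p = 0.0512), upper-quartile scaling (0.0534) and limma-voom (0.0993) ended it too. Fshr gave 0.41 ± 0.29 (adjusted p = 0.363) and Gnas -0.04 ± 0.44 (adjusted p = 0.969) in the same comparison.

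**Figure D2:**
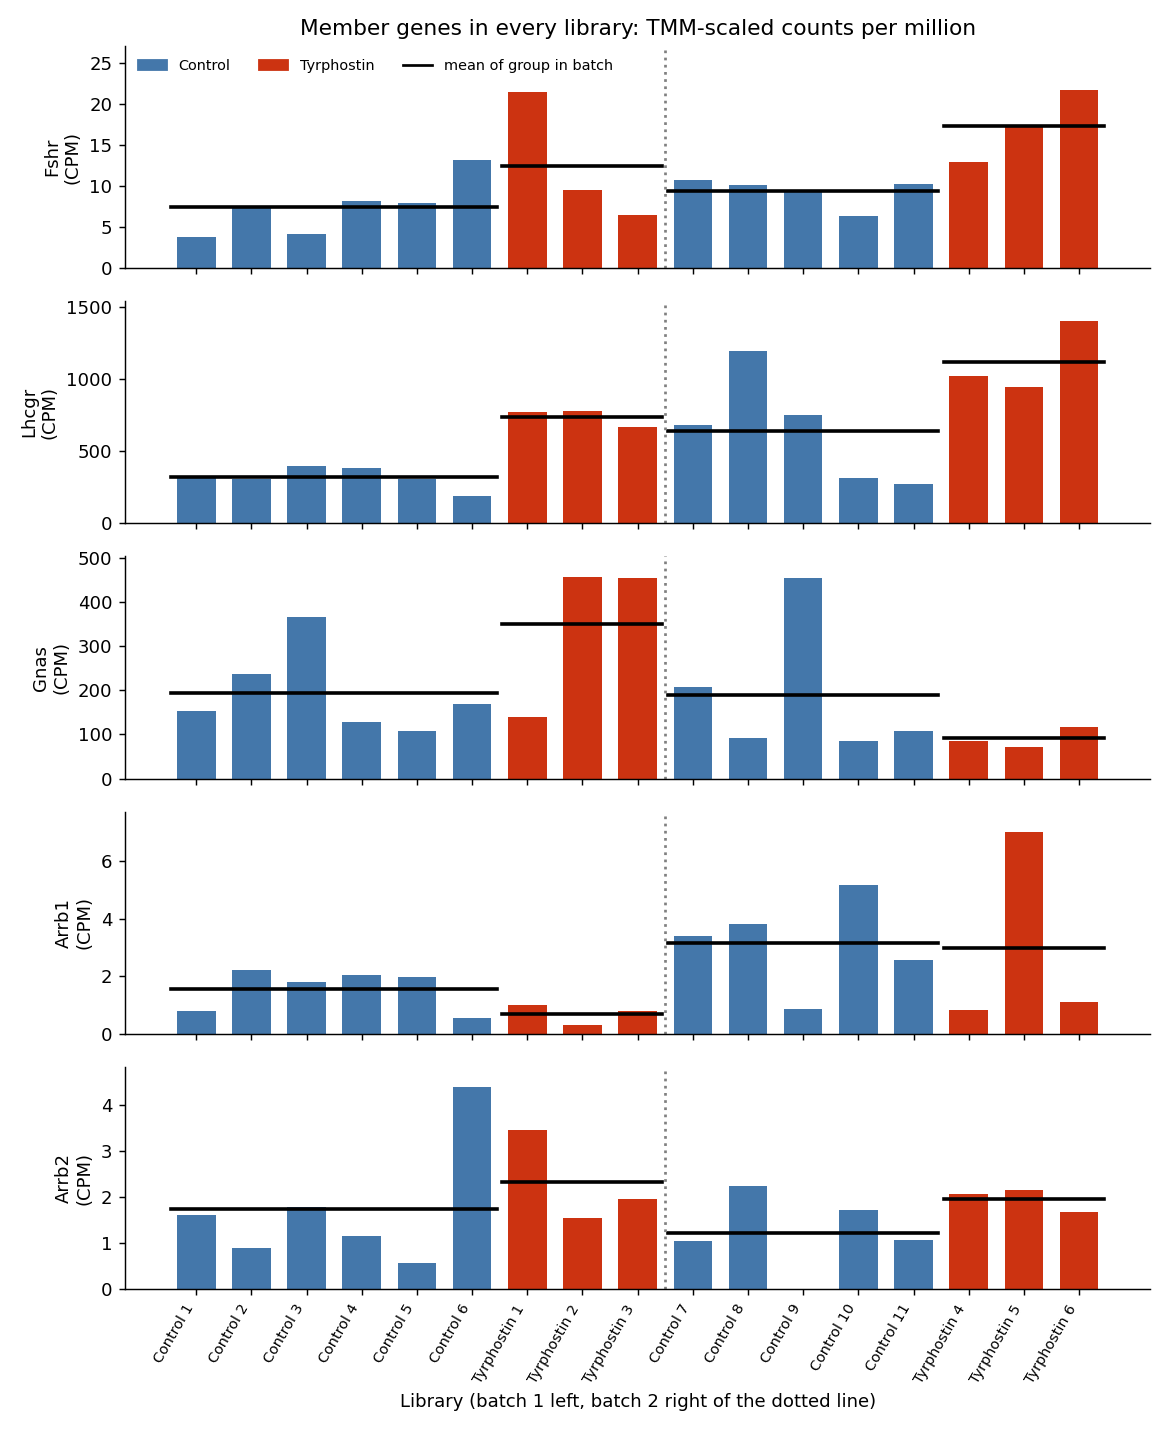
CPM of each member gene in every library (bars from 0; blue Control, red Tyrphostin), with batch 1 left and batch 2 right of the dotted line and a black line at the mean of each group in each batch. Lhcgr bars of the batch 1 Tyrphostin libraries (670.0 to 777 CPM) stand above all batch 1 Control bars, and Fshr bars of the batch 2 Tyrphostin libraries (12.9 to 21.6 CPM) above all batch 2 Control bars.

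Fshr, the receptor through which granulosa cells are driven to grow and to make estrogen, was expressed far lower. It had 14 to 149 counts per library. Control libraries had a lowest value of 3.77, a median of 8.12 and a highest value of 13.1 CPM, and Tyrphostin libraries 6.44, 15.1 and 21.6 CPM. Means were 8.31 ± 2.84 CPM (SD, n = 11) and 14.8 ± 6.29 CPM (SD, n = 6). The groups overlapped, and 3 of 6 Tyrphostin libraries (Tyrphostin 1, 5 and 6) stood above every Control library. The log2 fold change was 0.83 ± 0.25 (SE), with an edgeR adjusted p of 0.0344 and a 95% interval of 1.27 to 2.51 on the fold scale.

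The Fshr call was close to the threshold and depended on single libraries. It was lost without Control 1, 3 or 10 (adjusted p = 0.0539, 0.0559 and 0.0533) and without Tyrphostin 1, 5 or 6 (0.187, 0.0529 and 0.101). Without Tyrphostin 1 the log2 fold change was 0.58. It was also lost without the batch term (adjusted p = 0.0645), with Control libraries summed by set (0.0824) and with the replicate number as a block (0.096). With log10 of the total count as a covariate Fshr was not called either (0.0583), while Lhcgr stayed called (0.85, adjusted p = 0.0371).

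Within batches the fitted Fshr values had the same sign, but the batch 1 value depended on 1 library. Batch 1 Control libraries ran from 3.77 to 13.1 CPM with a median of 7.62, and Tyrphostin 1, 2 and 3 stood at 21.4, 9.48 and 6.44 CPM, so that 1 of 3 lay above every Control library. Batch 2 Control libraries stood at 10.8, 10.1, 9.56, 6.33 and 10.2 CPM, and Tyrphostin 4, 5 and 6 at 12.9, 17.2 and 21.6 CPM, with no overlap. How many of all genes separate so in batch 2 was not counted. The edgeR log2 fold change was 0.80 ± 0.39 (SE; adjusted p = 0.248) in batch 1 and 0.88 ± 0.27 (SE; adjusted p = 0.201) in batch 2. Without Tyrphostin 1 the batch 1 value was 0.16 (adjusted p = 0.901). Neither batch alone gave a call for Fshr, and the batches' effects differed by 0.08 ± 0.53 (SE; interaction, unadjusted p = 0.88).

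Markers of granulosa cells, where Fshr is found, moved unevenly beside it. Of the 8 markers 6 were tested and 3 rose, beside 4.35% of all genes tested, namely Cyp19a1, the enzyme that makes estrogen, Hsd17b1 and Nr5a2. Inha (log2 fold change -0.05), Fst (1.05) and Amhr2 (0.49) gave no call, and Fst was 2.54 in batch 1 and -1.46 in batch 2. Nr5a2 is counted again among the regulators below, and both lists were chosen with earlier results of these data known. The summed marker level overlapped between the groups, and the part of granulosa cell number in the Fshr difference was not tested.

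The ratio of the receptors, which does not depend on library scaling, is a description only. On counts with 0.5 added, log2 of Lhcgr over Fshr averaged 5.66 ± 0.88 (SD, n = 11) in Control, from 3.81 to 6.88, and 6.04 ± 0.53 (SD, n = 6) in Tyrphostin libraries, from 5.17 to 6.68. The Tyrphostin range lay inside the Control range. This ratio is of counts, not of levels per length.

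Gnas encodes the stimulatory alpha subunit, in a complex and imprinted locus that also gives longer protein variants and antisense RNA. Its level had a lowest value of 84.9, a median of 153 and a highest value of 455 CPM in Control and values of 72.8, 127 and 457 CPM in Tyrphostin libraries. Means were 192 ± 119.8 CPM (SD, n = 11) and 221 ± 183 CPM (SD, n = 6), and the ranges overlapped nearly throughout. The log2 fold change was 0.03 ± 0.45 (SE; edgeR adjusted p = 0.98), with a 95% interval from -0.85 to 0.91. That interval spans changes as large as the one called in Fshr, in either direction.

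Fitted Gnas values had opposite signs in the batches. In batch 1, Tyrphostin 1, 2 and 3 stood at 139, 457 and 453 CPM and the Control libraries between 108 and 367 CPM with a median of 161. In batch 2, Tyrphostin 4, 5 and 6 stood at 85.6, 72.8 and 116 CPM and the Control libraries at 208, 92.6, 455, 84.9 and 107 CPM. The groups overlapped in both batches, with 2 Tyrphostin libraries above every Control library in batch 1 and 1 below every Control library in batch 2. The log2 fold change was 0.86 ± 0.40 (SE; edgeR adjusted p = 0.232) in batch 1 and -1.04 ± 0.54 (SE; adjusted p = 0.547) in batch 2. Without Control 9 the batch 2 value was -0.41 (adjusted p = 0.793). Over the numbered pairs 1 to 3 of batch 1, with the replicate number as a block, the batch 1 value was 0.38 (adjusted p = 0.382).

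The test of that difference depended on the filter. The interaction was -1.90 ± 0.75 (SE), with an unadjusted p of 0.0221 and an adjusted p of 0.9997 by edgeR. No gene of the 9603 was called in that test (0%), by edgeR, DESeq2 or limma-voom, and 342 had an unadjusted p under 0.05. Without the filter on low counts, edgeR called 79 of 21622 genes (0.365%) and gave Gnas an interaction of -1.93 ± 0.41 with an adjusted p of 0.00139. Without the filter Gnas was also called in batch 1 (0.92 ± 0.25; adjusted p = 0.00774), in a fit that called 4.4% of its genes. These fits without the filter took the error of Gnas almost wholly from genes in common. Its SE was 0.41 in place of 0.75 in the interaction and 0.25 in place of 0.40 in batch 1. Their p-values therefore do not measure the spread of Gnas between these libraries. In batch 1 Gnas was called with the filter when Tyrphostin 1 was left out (1.24; adjusted p = 0.0483).

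Exons of Gnas overlap those of Nespas, an antisense gene, over 988 bases (8.83% of the Gnas exon bases) and those of Gm20721, on the opposite strand, over 1469 bases (13.1%). The strand setting of the counting is not given in the sources used here, so reads over those stretches cannot be assigned with certainty. Nespas itself had between 0 and 12 counts per library.

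**Figure D3:**
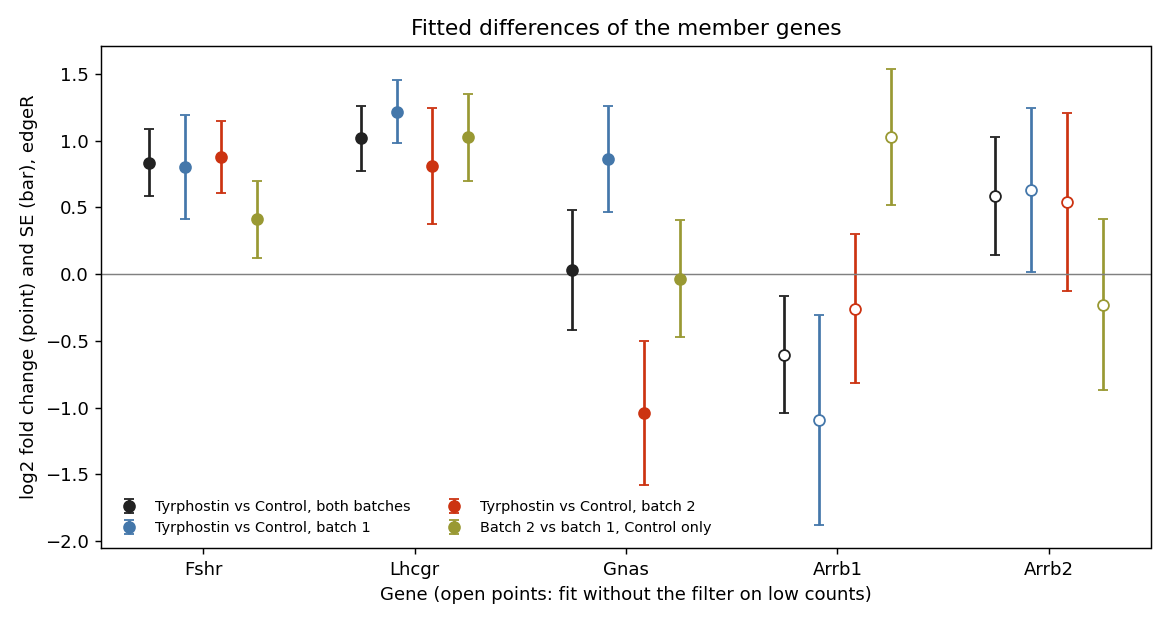
Log2 fold change (points) with SE (bars) of each member gene by edgeR, for Tyrphostin against Control in both batches, in batch 1 and in batch 2, and for batch 2 against batch 1 in Control libraries. Open points come from the fit without a filter on low counts. The receptors lie above 0 in all 4 comparisons, while Gnas lies at 0.86 in batch 1 and at -1.04 in batch 2.

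The beta-arrestins, which end the G protein signal of an occupied receptor, were near the limit of detection. Arrb1 had 1 to 34 counts per library and Arrb2 0 to 24. A floor of 3 counts corresponds to between 0.336 CPM (Control 8) and 1.64 CPM (Control 6), and 4 of 17 libraries were at or under it for Arrb1 and 2 for Arrb2. Arrb2 had no count in Control 9, which allows a level of up to 1.30 CPM. PCR copies of 1 molecule are counted separately here, so such floors hold for counting error alone.

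Arrb1 did not separate the groups. Its lowest, median and highest values were 0.547, 2.03 and 5.18 CPM in Control and 0.311, 0.914 and 7.01 CPM in Tyrphostin libraries. Of the Tyrphostin libraries, 5 lay between 0.311 and 1.12 CPM, and Tyrphostin 5 stood alone at 7.01 CPM, above every other library. That library also had the highest sums of theca and stroma markers (3058 CPM) and of immune markers (839 CPM), and their part in its Arrb1 level was not tested. Without the filter on low counts the log2 fold change was -0.60 ± 0.44 (SE; edgeR adjusted p = 0.518; 95% interval -1.47 to 0.26), where 4.28% of 21622 genes were called. Leaving out Tyrphostin 5 gave -1.40 with an adjusted p of 0.105.

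Arrb2 lay at similar low values in both groups. Control libraries had a lowest value of 0, a median of 1.16 and a highest value of 4.38 CPM, and Tyrphostin libraries 1.55, 2.00 and 3.44 CPM. The groups overlapped, with 5 Control libraries above the lowest Tyrphostin library. The log2 fold change without the filter was 0.59 ± 0.44 (SE; edgeR adjusted p = 0.537; 95% interval -0.28 to 1.45). The Arrb2 interval does not exclude a rise of the size called in the receptors. The Arrb1 interval of the same fit ends at 0.26, below the rise called in Fshr. In batch 2 alone Arrb1 passed the filter, with a log2 fold change of -0.25 ± 0.69 (SE). Its 95% interval there, from -1.60 to 1.11, includes a rise of the size called in Fshr.

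The balance of the arrestins is described by their count ratio alone. Log2 of Arrb2 over Arrb1, with 0.5 added to each count, averaged -0.68 ± 1.37 (SD, n = 11) in Control, from -2.32 to 2.50, and 0.86 ± 1.33 (SD, n = 6) in Tyrphostin libraries, from -1.64 to 2.07. Values overlapped between the groups. Single counts weigh heavily in this ratio, and no test was made.

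The wider chain around the receptors was read from 8 lists with 88 genes, of which 55 passed the filter. Of those 55, 4 rose, 2 fell and 49 gave no call. The called share, 10.9%, lay close to the 10.6% of all genes tested, and the median log2 fold change was 0.11 beside 5.42e-05 over all genes.

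Other G protein alpha subunits gave no call in 8 tested of 12. Gnai3, an inhibitory alpha subunit and the most abundant of the list, was at 359 ± 76.8 CPM in Control (SD, n = 11) and 473 ± 94.8 CPM in Tyrphostin libraries (SD, n = 6; edgeR adjusted p = 0.183). Gna11, of the class that couples to phospholipase C, was at 44.2 and 63.4 CPM (adjusted p = 0.0992), and Gnaq, of the same class, at 29.9 and 30.6 CPM.

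Among the beta and gamma subunits, which bind the alpha subunit at rest, 7 of 17 were tested and 2 beta subunits were called in opposite directions. Gnb4 fell from 70.3 ± 21.2 CPM in Control (SD, n = 11) to 35.9 ± 7.47 CPM in Tyrphostin libraries (SD, n = 6). Its log2 fold change was -0.91 ± 0.17 (SE), with an adjusted p of 0.00096 by edgeR. Every Control library exceeded 5 of 6 Tyrphostin libraries. Gnb5, the beta subunit that pairs with a class of RGS proteins, rose from 17.7 ± 4.87 to 31.4 ± 5.01 CPM. Its log2 fold change was 0.83 ± 0.18 (SE, edgeR adjusted p = 0.00314), with 4 of 6 Tyrphostin libraries above every Control library. This call was lost with the replicate number as a block (adjusted p = 0.0505). The gamma subunits Gng12 (72.3 and 54.4 CPM) and Gng5 (53.3 and 47.1 CPM) gave no call, and Gng10 had no count.

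Enzymes that act directly on the signal or on the receptor were low and gave no call. Adenylyl cyclases passed the filter in 3 of 10 genes, with Adcy3 at 10.3 CPM in Control and 9.44 CPM in Tyrphostin libraries, Adcy6 at 2.67 and 2.39 CPM and Adcy7 at 1.93 and 3.39 CPM. Receptor kinases passed in 2 of 6 genes, with Grk2 at 7.34 and 6.62 CPM and Grk6 at 4.76 and 3.61 CPM. The 3 chaperones of G protein assembly, Ric8a, Ric8b and Pdcl, also gave no call. Of the other glycoprotein hormone receptor and the hormone subunits, none of 6 passed the filter, and Fshb and Lhb had no count.

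Of the arrestin partners and the endocytic and sorting proteins, 20 of 21 were tested and 1 was called. Appl2, an adaptor of early endosomes, fell from 59.8 ± 14.5 to 40.2 ± 8.72 CPM, by 0.57 on the log2 scale (SE 0.15; edgeR adjusted p = 0.0147). This call was lost with total-count scaling (adjusted p = 0.0987), without the batch term (0.0651), with Control libraries summed by set (0.0515), without the filter (0.1) and without Tyrphostin 6 (0.0525). With the replicate number as a block the Appl2 call was lost too (0.371). Cltc, the clathrin heavy chain, had means of 1465 ± 601 and 689.7 ± 346 CPM and a log2 fold change of -1.05 ± 0.34 (adjusted p = 0.0509). Cltc thus missed the threshold here, but passed it with RLE scaling (0.0497), DESeq2 (0.0125), limma-voom (0.0343) and a filter of at least 10 counts in every library (0.0499), and without Control 6 (0.048), Control 7 (0.0127) or Tyrphostin 4 (0.0308). Its light chain Clta stood at 124 and 137 CPM. Ap2m1, a subunit of the clathrin adaptor AP2, stood at 155 and 161 CPM.

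Known regulators of the receptor genes held 3 of the 4 partner genes that rose, in 12 tested of 13. That is 25% of those tested, beside 10.6% of all genes called and 4.35% called higher. The list was chosen with earlier results of these data known, so this share is a description only. Nr5a2, a nuclear receptor of granulosa cells, had a lowest value of 25.1, a median of 43.9 and a highest value of 62.5 CPM in Control and values of 167, 193 and 269 CPM in Tyrphostin libraries, with no overlap. Its log2 fold change was 2.18 ± 0.16 (SE; edgeR adjusted p = 8.38e-09). Gata4, a GATA factor of granulosa and theca cells, averaged 22.4 ± 19.3 and 93.3 ± 66.1 CPM, and 3 of 6 Tyrphostin libraries lay above every Control library. Its log2 fold change was 2.32 ± 0.48 (SE; adjusted p = 0.00461), a call that was lost with Control libraries summed by set (2.01; adjusted p = 0.146). Foxo1, a forkhead factor that FSH signalling turns off in granulosa cells, averaged 5.16 ± 2.61 and 13.0 ± 3.57 CPM. Its log2 fold change was 1.30 ± 0.27 (SE; edgeR adjusted p = 0.00266), with 5 of 6 Tyrphostin libraries above every Control library. In batches 1 and 2 the log2 fold changes were 2.29 and 2.07 for Nr5a2, 3.14 and 1.36 for Gata4, and 1.77 and 0.81 for Foxo1.

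Other regulators gave no call in the same fit. Nr5a1, the close relative of Nr5a2, stood at 52.8 and 48.7 CPM (log2 fold change -0.11; edgeR adjusted p = 0.704). Usf1, which binds E boxes like the one in the Fshr run above, stood at 10.1 and 11.4 CPM, and Sp3, which binds GC boxes like the one in the Lhcgr run, at 42.0 and 39.0 CPM. Mvk, whose product can bind Lhcgr RNA, stood at 5.69 and 9.70 CPM (edgeR adjusted p = 0.0864). It passed with total-count scaling (0.0396), without the filter (0.0387) and without Control 7 (0.0154). Its log2 fold change was 1.54 in batch 1 and 0.12 in batch 2, and no Tyrphostin library lay above every Control library. Usf1, Sp3 and Mvk were named after their values were seen.

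**Figure D4:**
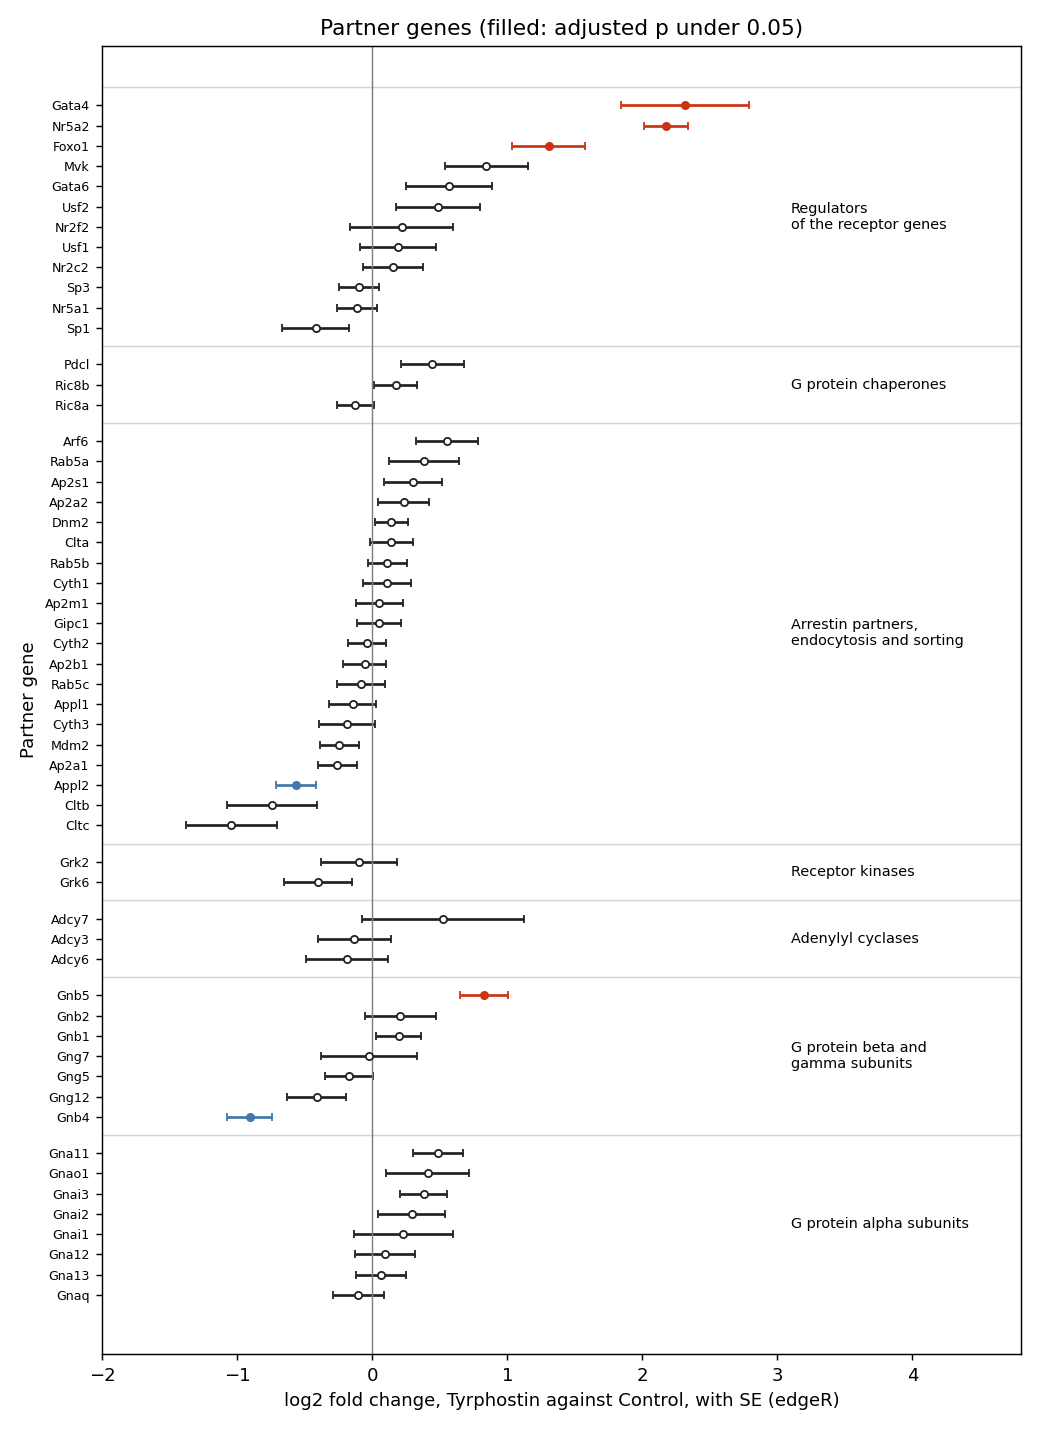
Log2 fold change (points) with SE (bars) of the 55 partner genes that passed the filter, Tyrphostin against Control in both batches, by edgeR, grouped by list. Filled red points rose and filled blue points fell; open points gave no call. Gata4, Nr5a2, Foxo1 and Gnb5 are the filled points above 0, and Gnb4 and Appl2 those below.

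Patterns over the 17 libraries were compared with those of 6305 genes of at least 3 on the average log2 CPM scale, by Pearson's r of log2 CPM. The libraries share group, batch and depth, so r is given again after the means of each group in each batch were removed, as a description with no test. Most like Fshr were Sec24d, a coat protein of transport vesicles (r = 0.86, then 0.84), Adck5 (0.80, then 0.63) and Slc35b2, a Golgi transporter (0.80, then 0.66). Most like Lhcgr were Enpp5 (r = 0.87, then 0.70), Snap47, a SNARE protein (0.84, then 0.52), and Prlr, the prolactin receptor (0.84, then 0.49). For Gnas they were Rac1, a small GTPase (r = 0.88, then 0.85), Fst, the activin-binding follistatin (0.86, then 0.82), and Rela, an NF-kappaB subunit (0.85, then 0.79).

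Fst shows what the Gnas pattern looks like across libraries. The 4 libraries with the most Gnas, Control 3, Control 9, Tyrphostin 2 and Tyrphostin 3, were also the 4 with the most Fst, at 1066, 434, 1061 and 3605 CPM. In the other libraries Fst lay between 39.2 and 354 CPM. Among the members themselves r was 0.52 for Fshr and Lhcgr, -0.37 for Fshr and Gnas and -0.03 for Lhcgr and Gnas over the same 17 libraries.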

How the data were processed

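RNA-seq counts of 11 Control and 6 Tyrphostin libraries were used. Whole-number counts per gene symbol were deposited as 1 table; STAR, HTSeq and build GRCm38 are named per the submitters' processing notes, and RNA-SPRI bead extraction with Smart-Seq2 libraries per the labels' protocols. Versions, annotation and strand setting are not given in the sources used here. Of 25198 genes, 3576 had no count.

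Genes were tested with edgeR 4.0.16 (R 4.3.3): filterByExpr, TMM, robust glmQLFit, the quasi-likelihood F test, Benjamini-Hochberg adjustment over all genes tested and a threshold of 0.05. The SE is the size of the log2 fold change over the square root of F. The 95% intervals multiply this SE by the value for a normal distribution, so they are somewhat narrower than the F test implies. The fit over all libraries had batch as a term; others were within batch, the interaction, and batches among Control libraries. Arrestins, below the filter in the fit over all libraries, were read from a fit without it, a choice made after seeing the data. Total counts ran from 1820545 to 8291024. All 31 same-group, same-batch pairs of libraries differed beyond sampling noise (chi-square over its degrees of freedom, 11.8 to 84.1). On simulated counts of 9603 genes for the fit over all libraries, 68% of genes raised by 1 and 54.3% of those lowered by 1 on the log2 scale were called, and 0.0653% of unchanged genes. The simulated counts held no batch difference and no likeness between libraries of a set, so these shares need not hold for the data.

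The members and lists were chosen with earlier results of these data known. Named genes are the members, partner genes called in the fit over all libraries, the 3 most abundant of each list and the 3 most like each tested member. Libraries numbered 1 to 3 in both groups, all of batch 1, deviated together from their group means (r 0.47, 0.31 and 0.38) and were taken as pairs. Those means covered both batches, so the r values also hold the shared batch and do not measure pairing within batch 1 alone. Each of Tyrphostin 1 to 3 had its highest r with the Control library of the same number. The pairing comes from the data, not the labels. Alternatives were other scalings, DESeq2 1.42.0, limma-voom (limma 3.58.1), other filters, other covariates, summed Control sets, a replicate block and omission of each library.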

Additional observations from a re-analysis of the deposited data

Results flagged for a closer look

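A search of 21 sets of 4 or more libraries (the 5 members and 2 count ratios, each in Control batch 1, Control batch 2 and Tyrphostin libraries) looked for a highest or lowest library whose gap to its neighbour was large against the whole range, by Dixon's 95% limit. It found 4. About 1.05 would be found by chance if the sets were independent and their values normally spread. The sets share libraries and members, and the arrestin counts are low, so that number is only a rough guide.

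Fshr stood at 6.33 CPM in Control 10, while the other 4 Control libraries of batch 2 lay between 9.56 and 10.8 CPM. Arrb1 stood at 7.01 CPM (26 counts) in Tyrphostin 5, while the other 5 Tyrphostin libraries lay between 0.311 and 1.12 CPM. Arrb2 stood at 4.38 CPM in Control 6, the shallowest library, from 8 counts, while the other 5 Control libraries of batch 1 lay between 0.564 and 1.79 CPM. Arrb2 also stood at 3.44 CPM (24 counts) in Tyrphostin 1, while the other 5 Tyrphostin libraries lay between 1.55 and 2.16 CPM.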

How the results depend on the processing

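The Lhcgr effect over both batches stayed called under 10 of 12 alternatives and every omission of 1 library, and Fshr under 8 of 12 and 11 of 17. Values that changed side were, without the batch term, Fshr 0.84 (adjusted p = 0.0645), Lhcgr 1.00 (0.0596) and 619 called genes in place of 1018; with log10 total count as a covariate, Fshr 0.89 (0.0583) and 678 genes; with Control sets summed, Fshr 0.86 (0.0824), Lhcgr 0.92 (0.0512) and Gnas -0.37 in place of 0.03. The replicate block over numbers 1 to 6 with a batch term is 1 of those 12 alternatives. In numbers 4 to 6 treatment and batch change together, so its treatment values rest on pairs 1 to 3 of batch 1. In that fit Fshr was 1.15 (0.096), Gnb5 0.0505 and Appl2 0.371 in adjusted p, and 631 genes were called. Cltc (-1.85; 0.00199) and Mvk (1.60; 0.0155) passed, and no other call of a member, partner or marker gene named changed. Within batch 1 the block over pairs 1 to 3, added after seeing the data, called 856 genes in place of 634 (394 in those 6 libraries without it), with Lhcgr called (1.11; 0.00313) and Fshr not (1.16; 0.0897). Numbers 4 to 6 join Control libraries of batch 1 to Tyrphostin libraries of batch 2, so the main fit did not take the numbers as pairs. Their r values (0.01, -0.13 and -0.06) also hold that difference of batch. Without the filter, batch 2 gave 222 calls and the interaction 79, in place of 61 and 0, and the Fshr interaction was -0.000942; DESeq2 gave 303 in batch 2 and 1473 between Control batches in place of 937. Omitting 1 library gave 708 to 1314 calls over both batches, 394 to 687 in batch 1 and 11 to 221 in batch 2. It moved Fshr from 0.58 to 0.99, Gnas from -0.22 to 0.30 (8 of 17 negative), the Fshr interaction from -0.21 to 0.72, that of Lhcgr from -0.60 to -0.03, Arrb1 in batch 2 from -1.76 to 0.25 and the Gnas difference between Control batches from -0.64 to 0.26, where total-count scaling gave 0.0757. Total-count scaling moved the median of all genes from 5.42e-05 to 0.15 and the share of higher calls from 41.1% to 64.4%, with Fshr at 0.95, Lhcgr at 1.18 and Gnas at 0.23. Apart from these constructions the causes were not tested. The arrestins had at most 34 and 24 counts per library, and no alternative called either, with Arrb1 from -1.14 to -0.48 and Arrb2 from 0.54 to 0.74 (-1.40 to -0.39 and 0.38 to 0.78 when 1 library was omitted).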
